A study of Mus musculus with 10 samples.

Results

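Pontin (Ruvbl1) is an ATPase of the AAA+ family and a subunit of several chromatin complexes, among them the Tip60-p400 acetyltransferase complex and the INO80 remodelling complex. It was mapped by chromatin immunoprecipitation followed by sequencing (ChIP-seq) in mouse embryonic stem (ES) cells, and the regions described here are the promoters of genes with almost no mRNA reads in separate control libraries of ES cells. Of 21362 protein-coding genes on the autosomes that the mRNA tables list, 5750 (26.9%) had fewer than 0.1 counts per 1000000 reads (CPM) in both control libraries and are called silent. Their promoter was taken as 1 kb either side of the gene start in the NCBIM37 (mm9) annotation.

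The ChIP-seq has 1 library with an antibody against Pontin and 1 with an antibody against GFP as the control, both labelled as untreated ZHBTc4 ES cells, whose only source of Oct4 is a transgene that tetracycline (Tc) shuts off. The silent genes were chosen from 2 mRNA libraries labelled as the same line, taken 4 days after infection with a control shRNA lentivirus (shRNA control). The other mRNA libraries were 2 of ZHBTc4 cells 4 days after infection with an shRNA against linc1253, 1 of ZHBTc4 cells after 2 days of Tc (Tc 2D), and 1 each of Pontinf/f; CreER ES cells without treatment (WT) and 3 or 4 days after 4-hydroxytamoxifen (OHT 3D, OHT 4D), which removes the floxed Pontin alleles. ChIP and mRNA thus came from cells that differed in lentiviral infection, and nothing says that the 2 control libraries came from separate cultures.

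Silent promoters are of more than one kind. In mammals, most housekeeping genes and many regulators of development start in CpG islands, stretches of DNA that keep their CpG dinucleotides because they are mostly unmethylated, and in ES cells the islands of silent developmental regulators are known to carry Polycomb complexes. Genes used in a single tissue, such as olfactory receptors, mostly start in CpG-poor DNA. Regions were therefore grouped by sequence. A region was CpG-rich if a 500 b interval in it had a GC content of at least 55% and a CpG content of at least 0.75 of that given by its base composition, CpG-poor if no interval reached 0.48, and intermediate otherwise. Of the silent promoters 524 were CpG-rich, 1031 intermediate and 4195 CpG-poor.

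The letters below are the 250 b upstream of the gene start for 6 silent genes, read from NCBIM37 5′ to 3′ on the strand of the gene, with each CpG in capitals. Olfr94, E130114P18Rik and Nt5c1a are the CpG-rich promoters with the highest lower 95% limit of the Pontin over GFP ratio among those with no expressed start within 5 kb, and Tm4sf1 is the CpG-poor one. Lhx8 and Hoxa3 were added after their values were seen, as the highest and the lowest CpG-rich member of the homeobox lists. Their positions are chr17:37334957-37335206 (-), chr4:97444770-97445019 (-), chr4:122878497-122878746 (+), chr3:57105842-57106091 (-), chr3:153993616-153993865 (-) and chr6:52163339-52163588 (-), in the order printed.
Olfr94: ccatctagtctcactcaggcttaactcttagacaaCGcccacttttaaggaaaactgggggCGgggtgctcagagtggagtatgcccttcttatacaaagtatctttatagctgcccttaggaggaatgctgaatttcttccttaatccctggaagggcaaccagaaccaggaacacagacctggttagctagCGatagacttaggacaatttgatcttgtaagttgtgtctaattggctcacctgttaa
E130114P18Rik: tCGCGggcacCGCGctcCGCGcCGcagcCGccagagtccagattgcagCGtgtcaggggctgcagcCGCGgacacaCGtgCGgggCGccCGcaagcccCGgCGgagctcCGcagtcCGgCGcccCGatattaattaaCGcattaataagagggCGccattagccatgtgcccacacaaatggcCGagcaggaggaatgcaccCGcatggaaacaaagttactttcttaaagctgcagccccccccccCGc
Nt5c1a: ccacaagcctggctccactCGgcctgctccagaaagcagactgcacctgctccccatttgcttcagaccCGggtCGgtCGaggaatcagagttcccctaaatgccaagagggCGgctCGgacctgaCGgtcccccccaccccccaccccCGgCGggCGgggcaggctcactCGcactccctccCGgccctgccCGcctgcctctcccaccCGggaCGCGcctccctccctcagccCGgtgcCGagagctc
Tm4sf1: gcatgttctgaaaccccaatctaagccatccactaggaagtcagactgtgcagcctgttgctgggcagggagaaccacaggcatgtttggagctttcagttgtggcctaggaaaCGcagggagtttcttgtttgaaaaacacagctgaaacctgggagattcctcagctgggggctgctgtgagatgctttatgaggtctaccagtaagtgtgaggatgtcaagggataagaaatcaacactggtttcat
Lhx8: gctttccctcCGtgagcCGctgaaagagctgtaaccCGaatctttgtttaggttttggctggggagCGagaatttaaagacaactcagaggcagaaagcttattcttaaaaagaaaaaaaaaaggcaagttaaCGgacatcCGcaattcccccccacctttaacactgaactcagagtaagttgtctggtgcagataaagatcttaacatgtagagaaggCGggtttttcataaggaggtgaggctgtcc
Hoxa3: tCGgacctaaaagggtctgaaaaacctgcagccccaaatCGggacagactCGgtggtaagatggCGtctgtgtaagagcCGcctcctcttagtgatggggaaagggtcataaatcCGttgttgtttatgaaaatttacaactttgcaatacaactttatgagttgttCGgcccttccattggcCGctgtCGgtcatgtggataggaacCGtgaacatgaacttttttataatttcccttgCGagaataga
These stretches held 26 CpG in E130114P18Rik, 18 in Nt5c1a, 11 in Hoxa3, 7 in Lhx8, 3 in Olfr94 and 1 in Tm4sf1. The class rests on the whole 2 kb region, which held 85 CpG in Olfr94.

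After repeats of the same position and strand were reduced to 1, the Pontin library had 36086569 reads and the GFP library 13875540. All 8 markers of ES cells were high in both control mRNA libraries, from 208 CPM (Klf4 in replicate 2) to 1210 CPM (Zfp42 in replicate 1). The ChIP libraries, labelled ZHBTc4, went against the mRNA of that line on the Y chromosome. Over 4 genes of the Y chromosome, Ddx3y, Eif2s3y, Uty and Kdm5d, the Pontin library had 1 read and the GFP library 0, whereas autosomes had 14.5 and 5.57 reads per kb. In the control libraries, also labelled ZHBTc4, Ddx3y mRNA was 51.3 and 45.9 CPM, Eif2s3y 68.4 and 61.2, Uty 12.9 and 10.7, and Kdm5d 3.37 and 3.53. All 4 were at 0 CPM in WT, of the Pontinf/f; CreER line. The silent genes may therefore have been chosen in cells that differ from those of the ChIP, in the Y chromosome or in the line itself, which cannot be told apart here. The X chromosome had 0.577 of the autosomal read density in the Pontin library and 0.587 in the GFP library. The part of these differences in the results was not tested. The median log2 ratio given further on was 0.09 over 4308 silent promoters and over the 4155 of them also below 0.1 CPM in WT. These are nearly the same promoters, so that the like medians cannot decide the question.

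A CPM below 0.1 meant at most 2 reads in either control library. Even 0 reads allow up to 3, which are 0.138 and 0.129 CPM, so that silent means few or no reads at this depth, and not absence of mRNA. Both control libraries had 0 CPM for 4031 of the silent genes. Just inside the limit were S100a3, Hoxc11 and Pcp2, with 0.0923 and 0.0860 CPM. Just outside it were Cryba1, Lhx1 and Dydc1, with 0 and 0.129 CPM. The group also holds genes whose transcription could have been missed for another reason. The bodies of 487 silent genes overlap an expressed gene (at least 1 CPM), and 279 starts lie within 5 kb of an expressed start. A further gene ID with the same symbol was expressed for 48 silent IDs, of which 26 lie within 5 kb of an expressed start.

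Reads were placed by their midpoint and scaled to reads per 1000000 reads of the library (RPM). A ratio on the log2 scale was computed after adding 0.1 RPM, for promoters with at least 20 reads over both libraries, and these were 4308 of the 5750. Of the 1442 others, 654 had no read in either library, and 451 belonged to the olfactory or vomeronasal receptor lists. With 1 library for each antibody no test between antibodies was possible. Intervals are 95% exact binomial (Clopper-Pearson) intervals of the Pontin share of reads, given as ratios. They cover counting error only, and are too narrow because both mates of a pair were counted.

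At silent promoters the Pontin and GFP libraries were nearly level. The median log2 ratio was 0.09 (0.07 to 0.12 by order statistics over 4308 promoters), but 0.0 with no read minimum and 0.22 with a minimum of 50 reads, and the summed reads gave a ratio of 1.08 (1.07 to 1.09). A ratio above 2 was seen at 486 silent promoters (11.3%), against 18.5% of all autosomal protein-coding promoters. The read minimum counts both libraries together, so that a promoter could pass it on reads of the deeper Pontin library alone. The part of counting error in the share above 2 was not tested, and that share is no count of bound promoters. It depended on the value added before the ratio and was 3.30% with 0.5 RPM. A ratio below 0.5 was seen at 147 (3.41%), against a background of 1.17%. Active promoters, of genes with a mean of at least 10 CPM in the control libraries, had a median of 0.60 over 8632 promoters, and 23.9% of them were above 2. In the steps between, the median was 0.28 at 0.1 to 1 CPM and 0.42 at 1 to 10 CPM. The step called 0.1 to 1 CPM holds all genes not silent with a mean below 1 CPM. It thus includes genes with a mean below 0.1 CPM that reached 0.1 CPM in 1 control library. In 10 kb bins with no gene start nearby, the median was -0.02 over 165491 bins.

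Among the CpG classes of silent promoters, the excess of Pontin reads was largest at the CpG-rich ones. Per promoter they had 1.30 RPM of Pontin and 0.896 RPM of GFP, a summed ratio of 1.45 (1.41 to 1.49). The 4195 CpG-poor ones had 0.624 RPM of Pontin and 0.622 RPM of GFP, a ratio of 1.00 (0.992 to 1.02), and the intermediate ones a ratio of 1.097 (1.07 to 1.12). The medians were 0.52, 0.02 and 0.14 on the log2 scale for CpG-rich, CpG-poor and intermediate regions. The difference between the CpG-rich and CpG-poor medians was 0.51 among silent promoters and 0.47 among active ones. Among the silent CpG-rich promoters 21.6% were above 2 and 0.216% below 0.5, against 25.8% and 0.0563% of active CpG-rich ones. Among the silent CpG-poor ones, with their summed ratio of 1.00, 9.52% were above 2 and 4.23% below 0.5. Active CpG-poor promoters had like shares above 2 (8.64%) and fewer below 0.5 (2.10%). Over all autosomal protein-coding promoters the shares were 18.5% and 1.17%.

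**Figure D1:**
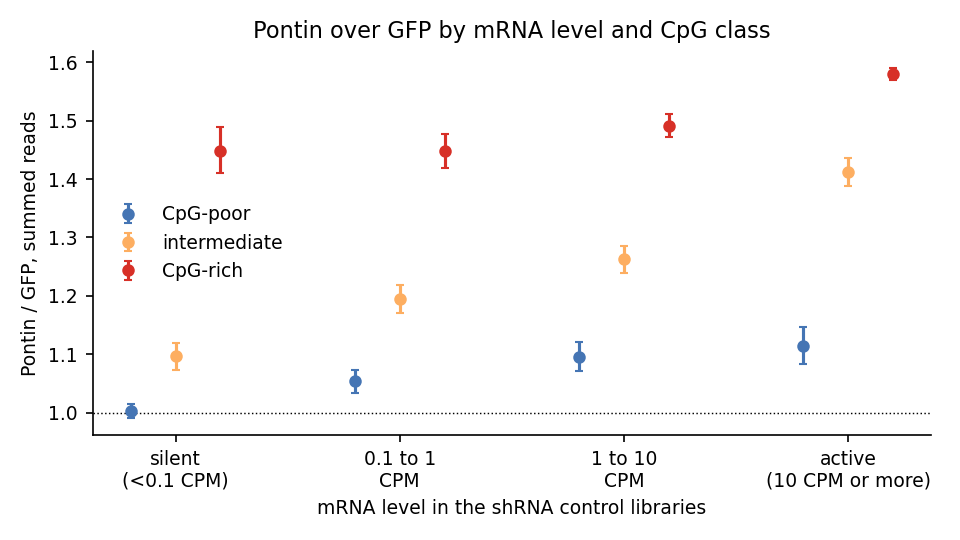
Ratio of Pontin over GFP reads (y axis, summed RPM, 95% counting interval as bars) for promoters grouped by mRNA level in the shRNA control libraries (x axis) and by CpG class (colour); the y axis does not start at 0 and the dotted line marks equal libraries. Silent CpG-poor promoters sit at 1.00 and silent CpG-rich ones at 1.45, while active CpG-rich ones reach 1.58.

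Silent and active promoters hold the CpG classes in different shares, and within a class the gap between them was smaller. The silent median was 0.51 below the active one over all promoters, but 0.12 below it among CpG-rich, 0.32 among intermediate and 0.15 among CpG-poor regions. For CpG-rich regions the summed ratio was 1.45 in silent genes, 1.45 (1.42 to 1.48) at 0.1 to 1 CPM, 1.49 (1.47 to 1.51) at 1 to 10 CPM and 1.58 (1.57 to 1.59) in active genes. The intervals of silent and active CpG-rich promoters did not overlap, whereas those of silent genes and the next step did. For CpG-poor regions the ratio was 1.00 in silent genes and 1.11 (1.08 to 1.15) in active ones.

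GC content moved with the ratio as well. Across the 4308 silent promoters, which share the same pair of libraries, the log2 ratio had a Pearson correlation of 0.194 with GC content and of 0.227 with the CpG content relative to base composition (Spearman 0.199). Compared at like GC content, silent promoters had a median of 0.11 at 45 to 50% GC, where active ones had 0.57. At 55 to 60% GC the medians were 0.47 and 0.62, with summed ratios of 1.40 (1.34 to 1.45) and 1.57 (1.55 to 1.59). At 40 to 45% they were 0.02 and 0.29, at 50 to 55% 0.22 and 0.58, and above 60% 0.56 and 0.72. At 40% or less they were 0.00 and 0.12, with intervals that overlapped, so that the gap was smaller at both ends of the GC range than at 45 to 50%. These strata match GC content but not CpG class, and the part of CpG class in the gaps was not tested. The part of base composition in the ratio was not tested either.

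**Figure D2:**
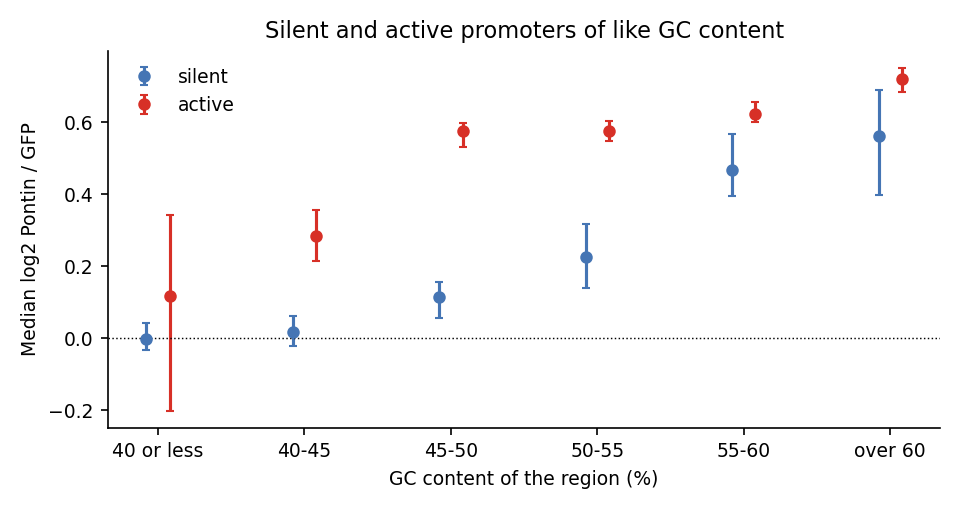
Median log2 ratio of Pontin over GFP (y axis, bars are 95% order-statistic intervals over promoters) of silent and active promoters in 6 strata of GC content of the 2 kb region (x axis, percent). At 45 to 50% GC the silent median is 0.11 and the active one 0.57, and above 60% GC they are 0.56 and 0.72.

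Some silent genes start beside an expressed gene, and their region then holds the promoter of that neighbour. With an expressed start within 1 kb, 157 silent promoters had a summed ratio of 1.53 (1.46 to 1.60), close to that of active promoters. At 1 to 5 kb the ratio was 1.23 (1.16 to 1.30), at 5 to 50 kb 1.08 (1.06 to 1.10), and beyond 50 kb 1.04 (1.03 to 1.05). The CpG classes changed along with the distance, since 124 of the 157 nearest were CpG-rich, against 265 of the 4137 farthest. Among CpG-rich promoters alone the ratios were 1.53 (1.46 to 1.61), 1.35 (1.21 to 1.52), 1.45 (1.37 to 1.54) and 1.40 (1.35 to 1.46), with no steady fall. The CpG-rich silent promoters kept a ratio of 1.42 (1.37 to 1.47) when the 375 with no expressed start within 5 kb were taken alone. It was likewise 1.42 (1.37 to 1.47) for the 339 of these whose gene body overlaps no expressed gene. The CpG-poor ones without such a neighbour stayed at 0.999 (0.987 to 1.01).

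The Pontin reads at silent CpG-rich promoters formed a low, broad peak over the gene start. Within 500 b of it, the promoters with no expressed start within 5 kb had 0.611 RPM per kb of Pontin and 0.401 of GFP, a ratio of 1.52 (1.45 to 1.60). At 2 to 3 kb on either side the ratio was 1.08 (1.04 to 1.12). Active CpG-rich promoters had 1.02 RPM per kb of Pontin and 0.542 of GFP at the centre, a ratio of 1.88 (1.87 to 1.90), and 1.00 at 2 to 3 kb. At silent CpG-poor promoters the ratio was 1.00 (0.986 to 1.02) at the centre and 0.986 (0.974 to 0.998) in the flanks, so that no peak was detectable at this depth.

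**Figure D3:**
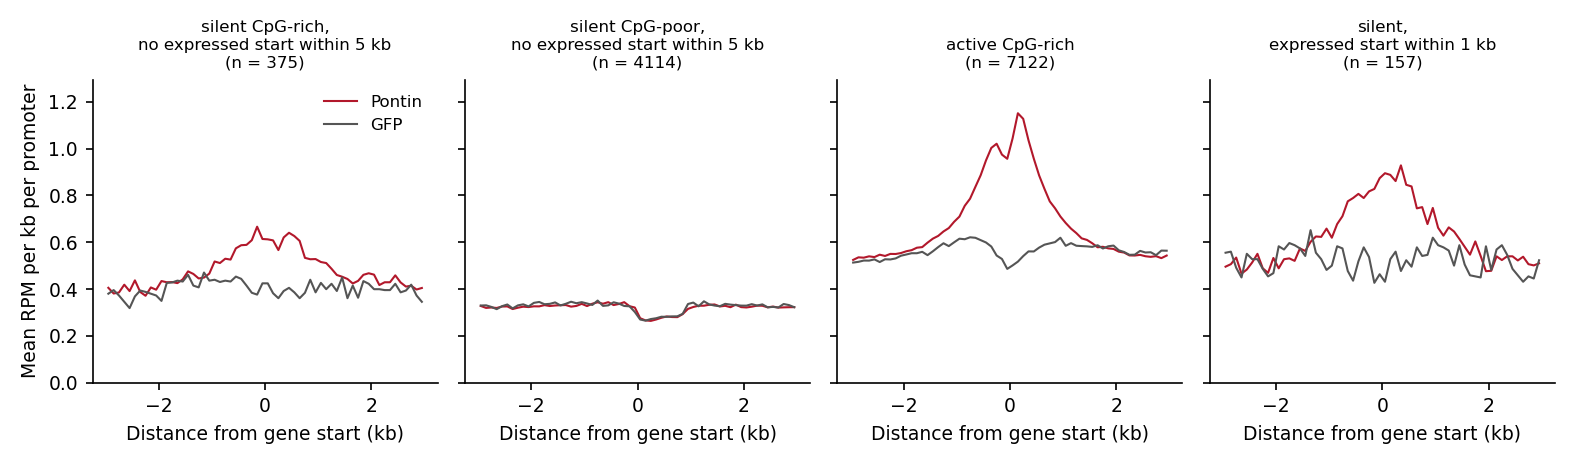
Mean read density (y axis, RPM per kb per promoter) of the Pontin and GFP libraries in 100 b bins against distance from the gene start (x axis, kb, downstream to the right) for 4 groups of promoters; a single library stands behind each line. At silent CpG-rich promoters the Pontin line lies above the GFP line within 500 b of the start, where their means are 0.611 and 0.401, and the lines lie on each other at silent CpG-poor promoters.

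Olfactory receptors, the odorant sensors of the nasal epithelium, made up 1084 of the silent genes, 1010 of them CpG-poor. Their summed ratio was 0.986 (0.963 to 1.01), and 10.01% of the 819 with enough reads were above 2, close to the 11.3% of all silent promoters and below the 18.5% of all promoters. Vomeronasal receptors, which detect pheromones, had 1.02 (0.960 to 1.09) over 298 genes. Taste and trace amine receptors had 0.873 (0.793 to 0.962) over 51 genes with no CpG-rich member. Type I interferons, the antiviral cytokines, had 0.817 (0.672 to 0.997) over 16. The interval of the taste receptors lay below the summed ratio of the 10 kb bins, 0.988, and that of the interferons spanned it. With first mates alone both intervals spanned 1, at 0.777 to 1.02 and 0.661 to 1.13.

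Other families of genes with tissue-restricted use lay around equal libraries. Keratin-associated proteins of the hair had a summed ratio of 1.07 (0.946 to 1.21), defensins 1.01 (0.901 to 1.14), the prolactin family 0.956 (0.805 to 1.14), cytochrome P450 enzymes 1.099 (0.966 to 1.25), chemokines 0.992 (0.866 to 1.14), immune receptors 0.939 (0.826 to 1.07) and crystallins of the lens 1.06 (0.730 to 1.56). Spermatid genes had 1.17 (0.997 to 1.37) over 19 genes. Neuronal channels and receptors, with 13 CpG-rich members of 46, had 1.12 (1.02 to 1.24). Of these lists, only the last had an interval wholly above 1, and with first mates alone it too spanned 1 (0.983 to 1.28).

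Regulators of development lay higher. Silent homeobox regulators other than Hox genes, such as Lhx8, had a summed ratio of 1.42 (1.29 to 1.58) over 36 genes, 28 of them CpG-rich. Lineage regulators of the basic helix-loop-helix family had 1.38 (1.17 to 1.63) over 14 genes, and Fox, Sox, Gata, Tbx and Zic factors 1.28 (1.102 to 1.501) over 17. Above 2-fold were 10 of the 85 genes of the 4 transcription factor lists (11.8%), against 11.3% of all silent promoters and the background of 18.5%. Among CpG-rich silent promoters alone, 5 of 55 listed factors (9.09%) and 95 of 407 other genes (23.3%) were above it. The CpG-rich members of these lists had a ratio of 1.31 (1.21 to 1.42) over 55 genes. The 469 other CpG-rich silent genes had 1.47 (1.43 to 1.51), an interval above that of the listed factors, although the median log2 ratios were 0.49 (0.22 to 0.74) and 0.53 (0.46 to 0.62), with intervals that overlapped, as did those of the summed ratios with first mates alone (1.21 to 1.51 and 1.41 to 1.53). Chosen for no expressed start within 5 kb, the same sets had 1.29 (1.18 to 1.40) over 52 and 1.45 (1.40 to 1.504) over 323 genes, with intervals that touched at 1.40.

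Hox genes pattern the body axis. The 18 silent ones had a summed ratio of 1.15 (0.999 to 1.32), an interval that overlapped that of the other homeobox regulators, and 8 of them were CpG-rich. Above 2-fold were 0 of the 18, against 11.3% of silent and 18.5% of all promoters. Hoxd12 was the highest by its lower limit, with 74 Pontin and 15 GFP reads, a ratio of 1.90 (1.08 to 3.56). Hoxa3 was the lowest, with 45 Pontin and 31 GFP reads, a ratio of 0.558 (0.346 to 0.912), although its region is CpG-rich. Counted by first mates alone, the intervals of both Hoxd12 (0.899 to 5.43) and Hoxa3 (0.267 to 1.08) spanned 1. Hox genes lie in clusters, and the regions of neighbouring starts can share reads.

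**Figure D4:**
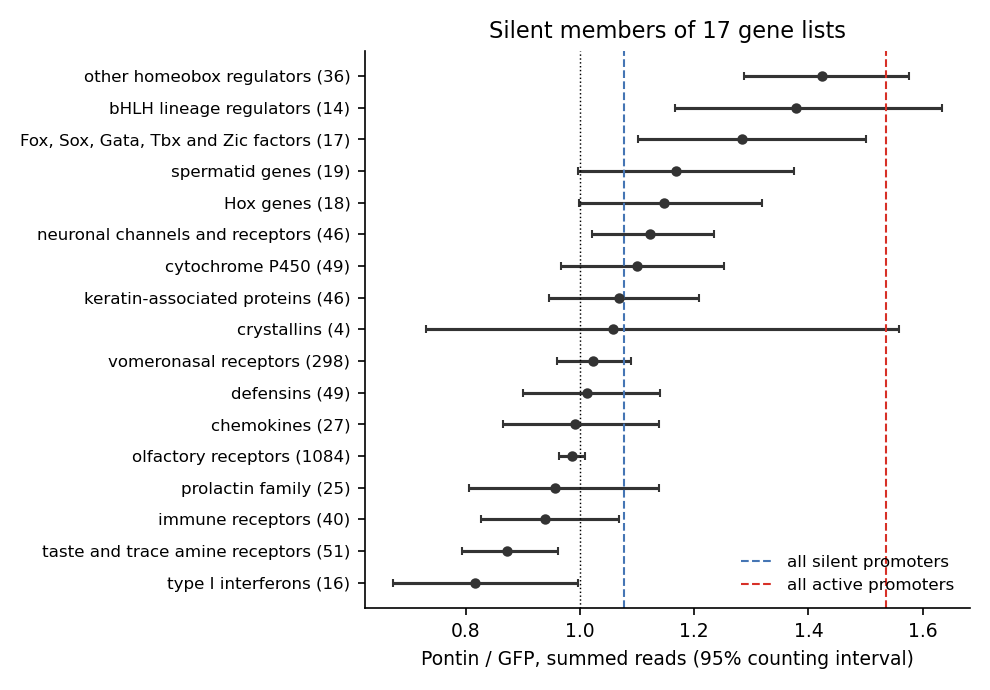
Ratio of Pontin over GFP summed over the silent members of 17 gene lists (x axis, bars are 95% counting intervals; number of silent members in parentheses), with dashed lines for all silent and all active promoters. Homeobox regulators other than Hox genes lie highest at 1.42 and type I interferons lowest at 0.817.

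Single promoters carried few reads. The median counting error of a single log2 ratio was 0.50, and 0.70 with first mates alone. The standard deviation of the log2 ratio, by comparison, was 0.71 over the 4308 silent promoters with at least 20 reads. The lower limit of the ratio was above 1 at 465 silent promoters (10.8%), against 25.8% of all autosomal protein-coding promoters, and the upper limit was below 1 at 231 (5.36%), against 2.31%. Whether a limit passes 1 depends on the read number as well as the ratio. With promoters below the read minimum included, silent ones had medians of 27 Pontin and 9 GFP reads, against 49 and 13 over all. The genes that follow are the extremes of 4308 promoters, picked by these limits, so that their values are a description.

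Of the 10 promoters with the highest lower limits, 2 belong to genes beside an expressed start. Ilk, the integrin-linked kinase of cell adhesions, had 69 Pontin and 2 GFP reads, a ratio of 13.3 (3.54 to 112). With first mates alone this fell to 6.95 (1.79 to 59.6). The start of the expressed gene Rrp8 lies 784 b away, and the body of Ilk overlaps an expressed gene. Gm9905 had 110 Pontin and 6 GFP reads, a ratio of 7.05 (3.14 to 19.6), with the start of Mettl9 at 651 b. Whether reads of these genes were lost in counting was not tested.

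The 8 others have no expressed start within 5 kb. Olfr94, an olfactory receptor gene, had 83 Pontin and 4 GFP reads, a ratio of 7.98 (3.00 to 30.0). With first mates alone it had 42 and 2 reads, a ratio of 8.11 (2.11 to 69.2). It was the only CpG-rich gene of the 1084 silent olfactory receptors, and it had 0 CPM in both control libraries. E130114P18Rik, with 213 CpG in its region, had 56 and 2 reads, a ratio of 10.8 (2.84 to 91.1), and Nt5c1a, a cytosolic nucleotidase, had 55 and 2, a ratio of 10.6 (2.79 to 89.5). With first mates alone, the lower limits of E130114P18Rik and Nt5c1a were 1.79 and 1.72.

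The other promoters of those 8 were CpG-poor or intermediate. Tm4sf1, a membrane protein of the tetraspanin-like family, had 40 Pontin and 0 GFP reads, which gives a lower 95% limit of 3.98 for the ratio, and of 1.91 with first mates alone. For Ppfia2, with 33 and 0 reads, these limits were 3.25 and 1.59, and for Vmn1r203, with 30 and 0, they were 2.94 and 1.59. Gdpd4 had 54 and 2 reads, a ratio of 10.4 (2.74 to 87.9), and Olfr1155 had 53 and 2, a ratio of 10.2 (2.69 to 86.3), with lower limits of 1.72 and 1.58 for first mates alone. These 8 ratios rest on few GFP reads, 4 at the most, and their intervals are wide. The next highest without an expressed neighbour were Olfr389 with 40 and 1 reads and Gm9396 with 39 and 1.

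At the other end, Olfr229 had 13 Pontin and 20 GFP reads, a ratio of 0.250 (0.114 to 0.528). Olfr398 followed with 14 and 21 reads, Acsm1 with 23 and 29, Epyc with 28 and 33, and Nt5c1b with 9 and 15. All of these were CpG-poor, and their upper limits lay between 0.528 and 0.563.

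**Figure D5:**
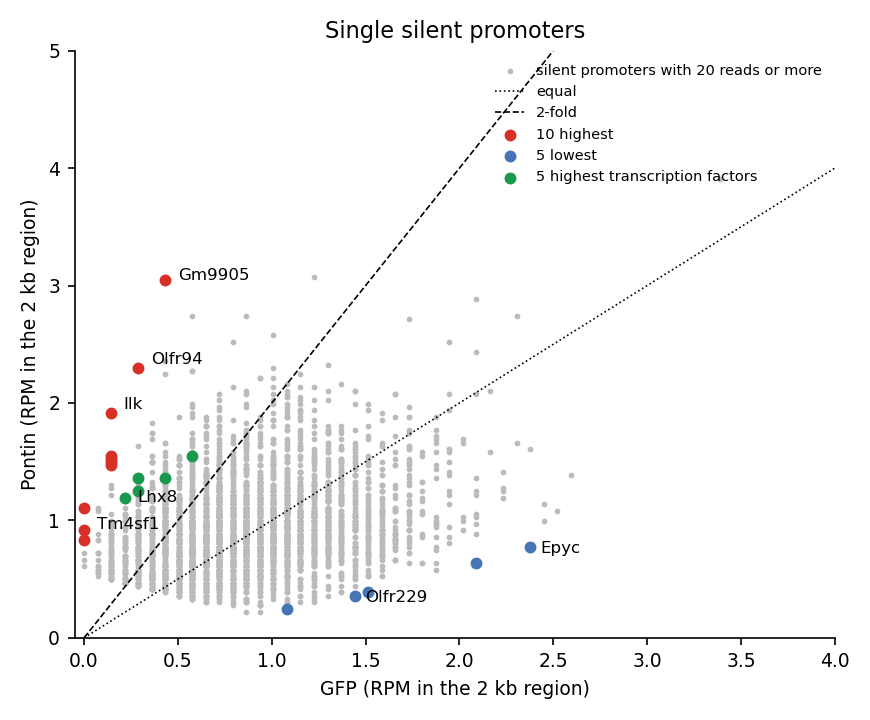
Pontin (y axis) against GFP (x axis), both in RPM over the 2 kb region, for 4303 silent promoters with at least 20 reads; 5 more lie outside the axes, and the lines mark equal libraries and 2-fold. Olfr94 sits at 2.30 RPM of Pontin and 0.288 of GFP, and Olfr229 at 0.360 and 1.44.

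The members of the transcription factor lists with high lower limits included Lhx8, Foxf1a, Myf6 and Neurod2. Lhx8, a LIM homeobox factor of forebrain neurons, had 43 Pontin and 3 GFP reads, a ratio of 5.51 (1.76 to 27.8). Foxf1a, a forkhead factor of the mesoderm, had 49 and 4 reads, a ratio of 4.71 (1.73 to 17.97). Myf6, a muscle regulator with a CpG-poor promoter, had 45 and 4, a ratio of 4.33 (1.58 to 16.6). The lists hold low members too. Foxi2 had 27 and 23 reads, a ratio of 0.451 (0.249 to 0.824), in a CpG-rich region, and Twist2 had 41 and 22, a ratio of 0.717 (0.417 to 1.26).

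Members of other lists spread as widely. Gabrb1, a subunit of the GABA receptor, had 49 Pontin and 4 GFP reads, a ratio of 4.71 (1.73 to 17.97), and Kcnmb2, a potassium channel subunit, had 23 and 24, a ratio of 0.368 (0.199 to 0.682). Tas2r114, a bitter taste receptor, had 36 and 3 reads, a ratio of 4.61 (1.46 to 23.4), whereas Tas1r3, a subunit of the sweet and umami receptors, had 12 and 17, a ratio of 0.271 (0.118 to 0.603). Counted by first mates alone, the interval of Tas2r114 spanned 1 (0.833 to 30.9), and that of Tas1r3 did not (0.0829 to 0.952). Ifnb1, the beta interferon, had 25 and 22 reads, a ratio of 0.437 (0.236 to 0.813), and the chemokine Cxcl1 had 31 and 27, a ratio of 0.441 (0.255 to 0.769). The highest chemokine entry was a second gene ID named Ccl25, with 91 and 11 reads. It starts 20 b from, and overlaps, the expressed gene ID of the same name, so that Ccl25 itself is not silent.

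Short motifs were searched on both strands of the 250 b upstream of each start. TATAAA, the core of a TATA box, was in 25.1% of silent promoters, 5.87% of active ones and 12.4% of all. GGGCGG, a motif of Sp1-type factors, was in 9.20%, 59.9% and 39.9%. It was in 49.2% of silent CpG-rich, 65.6% of active CpG-rich and 3.24% of silent CpG-poor promoters. TATAAA was in 6.87%, 4.87% and 28.9% of these groups, so that its gap between silent and active was small among CpG-rich promoters. The Pou motif ATGCAAAT was in 2.43% of silent, 1.11% of active and 1.63% of all promoters. CCAAT was in 33.9%, 37.1% and 34.7%, and CACGTG, an E-box, in 3.01%, 8.998% and 6.53%. None of these motifs contains another, and 1 promoter can hold several. Of the sequences printed above, Nt5c1a held GGGCGG 2 times and Olfr94 held it 1 time, and E130114P18Rik held CACGTG 1 time. TATAAA was in Olfr94 and Hoxa3, and CCAAT in Olfr94, Tm4sf1 and Hoxa3, 1 time each.

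Within silent promoters the motifs were counted on either side of the 2-fold line. Of those above 2-fold, 18.3% held GGGCGG, against 10.05% at or below it, but among CpG-poor ones the shares were 4.63% and 3.97%. TATAAA was in 19.5% and 24.4%, and in 24.6% and 28.6% among CpG-poor ones. ATGCAAAT was in 17 of 486 (3.50%) above 2-fold and in 97 of 3822 (2.54%) at or below it, and among CpG-poor ones in 13 of 281 (4.63%) and 76 of 2671 (2.85%). These are descriptions of letters in a window and show no binding.

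The silent genes remained low in the mRNA libraries that did not choose them. Below 0.1 CPM were 97.1% of them in WT, 94.8% and 94.4% in the OHT 3D and OHT 4D libraries, 91.8% in the Tc 2D library, and 93.3% and 95.04% in the libraries with the shRNA against linc1253. Over all autosomal protein-coding genes these shares were, in the same order, 33.0%, 31.3%, 31.2%, 29.6%, 27.1% and 28.3%. At OHT 3D 13 silent genes (0.226%) were above 1 CPM, against 56.2% of all autosomal protein-coding genes. At OHT 4D there were 19 (0.330%, background 56.6%), at Tc 2D 10 (0.174%, background 56.7%) and in WT 4 (0.0696%, background 55.4%). These counts depend on the choice of silent genes: from control replicate 2 alone, without replicate 1, the Tc 2D count would be 24 and the OHT 4D count 21, and from replicate 1 alone they would be 26 and 48. By CpG class, 76.0% of CpG-rich and 94.2% of CpG-poor silent genes were below 0.1 CPM at Tc 2D, and 92.7% and 98.2% in WT. The CpG-rich share was also the lower one at OHT 3D (82.3% and 96.9%) and OHT 4D (82.6% and 96.6%). With the shRNA against linc1253 the shares were 87.6% and 94.5% in replicate 1, and 92.7% and 95.7% in replicate 2. The 2 mRNA tables were normalized separately, and 1 library stands for each of WT, OHT 3D, OHT 4D and Tc 2D. According to the paper, the shRNA libraries were run on another sequencer model than these.

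The genes with the highest level at Tc 2D were Kcnc1, Gbp1, Pparg, Tmem171 and Foxf1a. Kcnc1, a voltage-gated potassium channel, had 2.29 CPM at Tc 2D and 0 in both control libraries, with 0.313 in WT, 0.181 with OHT 3D and 0 with OHT 4D. Gbp1, an interferon-induced GTPase, had 1.97 CPM at Tc 2D, 0.0923 and 0.0860 in the control libraries, and 0 in all 3 libraries of the Pontinf/f; CreER line. Pparg, a nuclear receptor of fat cells and placenta, had 1.55 CPM at Tc 2D, 0 and 0.0430 in the control libraries, and 0 in WT. Foxf1a had 1.37 CPM at Tc 2D, 0.0461 and 0.0430 in the control libraries, and 0 in WT. WT is of the other line, and no mRNA library came from untreated ZHBTc4 cells. At Tc 2D the 4 of 5 trophectoderm markers found in the tables summed to 84.9 CPM, against 7.61 and 4.73 in the control libraries and 0.671 in WT. Hand1 alone was 61.8 CPM of this sum at Tc 2D. Cdx2 and Gata3 were higher there than in both control libraries, but Elf5, at 0.529 CPM, lay between their 0.646 and 0.344. The part of such cells in these levels was not tested, and in bulk samples fewer cells of a type and less RNA per cell cannot be told apart.

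At OHT 4D the highest were Mgp, Tm4sf1, Il1rl1, Dkk2 and Csn3. Mgp, matrix Gla protein, had 0.402 CPM in WT, 1.81 after 3 days and 4.47 after 4 days of OHT. Tm4sf1 had 0.0894, 2.22 and 3.20 CPM in this order, Il1rl1, a receptor of interleukin 33, had 0, 2.40 and 3.11, and Dkk2, a regulator of Wnt signalling, had 0.0447, 3.53 and 2.89. Mgp, Tm4sf1, Dkk2 and Csn3 had 0 CPM at Tc 2D. All 7 markers of feeder fibroblasts were found, and they summed to 17.5 CPM in WT, 111 and 148 in the OHT 3D and OHT 4D libraries, 40.1 and 36.6 in the control libraries and 7.65 at Tc 2D. Thy1 alone was 33.5 and 27.4 CPM of the control sums, against 9.25 in WT. Col1a1 and Lum were also higher in both control libraries than in WT, whereas Col1a2, Col3a1, Postn and Dcn were lower. Lum was at 0 in WT and at OHT 3D, and Lum, Dcn and Postn at Tc 2D. The 5 markers of primitive endoderm summed to 8.05 CPM in WT, 12.5 and 22.6 in the OHT libraries, 2.35 and 4.30 in the control libraries and 13.0 at Tc 2D. Gata4, Gata6 and Foxa2 were higher at Tc 2D than in both control libraries, whereas Sox7 was lower and Sox17 lay between them. The trophectoderm markers summed to 0.671 CPM in WT and to 6.11 and 8.37 in the OHT libraries. The part of such cells in these levels was not tested.

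In the ChIP libraries of untreated cells, the 30 silent genes above 1 CPM in any of the OHT and Tc libraries had a summed ratio of 1.43 (1.26 to 1.63), against 1.07 (1.06 to 1.09) for the 5720 others. Of the 30, Cbln4, H2-T3 and Gm10073 were already above 1 CPM in untreated WT, with 1.65, 1.56 and 1.30 CPM. Only Ccl7, Gpr149, Kcnc1 and Sprr2k of the 30 had 0 CPM in both control libraries, whereas 4031 of all 5750 silent genes did. The part of this difference in mRNA level below the limit was not tested. CpG content differed between the 30 and the others as well, with 8 CpG-rich genes among the 30. The CpG-rich ones had 1.62 (1.28 to 2.06), against 1.45 (1.41 to 1.49) for the CpG-rich others, and the intervals overlapped. The 9 intermediate ones had 1.41 (1.14 to 1.78), against 1.09 (1.07 to 1.12), and the intervals did not overlap. Their median log2 ratios were 0.46 and 0.13. The 13 CpG-poor ones had 1.29 (1.05 to 1.61), against 1.00 (0.991 to 1.01), again without overlap. With first mates alone both overlapped: the intermediate ones had 1.44 (1.06 to 1.98), against 1.09 (1.05 to 1.12), and the CpG-poor ones 1.32 (0.979 to 1.81), against 1.00 (0.984 to 1.02). The median log2 ratios of these CpG-poor groups were 0.09 and 0.02, closer than the sums. Tm4sf1 gave 40 of the Pontin reads of this CpG-poor group and 0 of its GFP reads. Picked after their values were seen, Csf1r, a receptor of macrophages whose body overlaps an expressed gene, had 47 Pontin and 2 GFP reads, and Gpr149 had 24 and 19, so that single members lay on both sides of equal libraries.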

How the data were processed

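ChIP-seq reads were trimmed with cutadapt and aligned to NCBIM37 with Bowtie2 by the authors, who deposited 1 line per aligned read with its mapping score. The mapping score was used only to describe the reads, not as a filter. It ran from 6 to 42 in the Pontin library and from 5 to 42 in the GFP library, whereas the paper gives a limit above 5. The part of this difference in the ratios was not tested. For mRNA the authors used TopHat for alignment, HTSeq for gene counts and TMM scaling in edgeR, and the deposited values are CPM in 2 tables normalized separately. Versions are not given in the sources used here. Whole reads were recovered from the CPM steps within 0.05 reads, which gave 17187595 to 37951742 reads per library and 0.0461 and 0.0430 CPM for 1 read in the control libraries.

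From the files, reads at the same position and strand were reduced to 1 per library (11.4% of Pontin and 19.3% of GFP reads were repeats), assigned by midpoint to the 2 kb regions and divided by the library total, which is the RPM. Of 22713 gene IDs 22337 matched the annotation. Settings were 0.1 RPM added on the log2 scale, at least 20 reads over both libraries, 2-fold (or 0.5) as called, at least 10 CPM as active and 1 CPM as expressed. Gene names given in the text were the 10 highest lower limits, with and without an expressed start within 5 kb, the 5 lowest upper limits, the extremes of each list, the 5 highest transcription factors, the 5 highest at Tc 2D and at OHT 4D, and 3 on either side of the limit. One gene that this rule names is not reported here. The members and lists were chosen with earlier results of these data known. The scripts were tested on simulated data. Alternatives changed the read set, the region, the added value, the read minimum, the silent limit and the neighbour rule, and left out each control library. The analysis used Python 3.11.15, numpy 2.4.6, pandas 2.3.3 and scipy 1.17.1. The X and Y chromosomes were left out of the regions.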

Additional observations from a re-analysis of the deposited data

How the results depend on the processing

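The ChIP results were recomputed under 17 alternatives each and the mRNA counts under 7, of which, for the ChIP results, those using WT or the neighbour's body or expressed start were added after seeing the data. The median log2 ratio at silent promoters, 0.09, was 0.13 with 1 mate per pair, 0.053 from 2.5 kb upstream to 500 b downstream, 0.17 within 500 b, 0.067 with 0.5 RPM added, 0.22 with at least 50 reads, 0.056 with no other start within 5 kb and 0.0 with no read minimum, where 654 promoters had no reads. The share above 2-fold, 11.3%, was 14.1% with all deposited reads, 5.87% from 2.5 kb upstream, 16.8% within 500 b, 3.30% and 14.1% with 0.5 and 0.02 RPM added, and 10.01% with no other start within 5 kb. The gap between silent and active promoters, -0.51, was -0.56 with all reads, -0.46 with 1 mate, -0.36 from 2.5 kb upstream, -0.61 within 500 b, -0.41 with 0.5 RPM, -0.40 with 50 reads and -0.60 with no minimum. The gap between CpG-rich and CpG-poor silent promoters, 0.51, was 0.60 with all reads, 0.31 from 2.5 kb upstream and 0.38 with 0.5 RPM. Leaving out either control library gave 0.10 for the median, 11.1% to 11.2%, -0.50 and 0.49. The gaps kept their direction under all of these.

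The count above 1 CPM at Tc 2D, 10, was 38 above 0.5 CPM, 1 above 2 CPM, 1 with 0 CPM in both controls, 2 with all 4 shRNA libraries below 0.1 CPM, and 24 to 26 with a control library left out. At OHT 4D, 19 became 46, 6, 2, 5 and 21 to 48. The cause was not tested, except that fewer or more genes entered by construction. No paired analysis was possible because the results come from no test and each antibody has 1 library. With 1 library per antibody, a difference between libraries and one between antibodies cannot be told apart, and a single promoter holds too few reads for a ratio near 1 to be read.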

Other observations

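The silent promoters with the most reads, picked after their values were seen, lie near each other at the start of chromosome 9. Gm10717 had 341 Pontin and 226 GFP reads, a ratio of 0.580 (0.489 to 0.689). Gm10722 had 334 and 197 reads, a ratio of 0.652 (0.545 to 0.781), and Gm10718 had 325 and 241, a ratio of 0.519 (0.438 to 0.615). These 3 regions had the most GFP reads of all silent promoters. The next in read number, Trpm8, a cold-activated ion channel on chromosome 1, had 320 and 97 reads, a ratio of 1.27 (1.01 to 1.61). How uniquely reads map to these regions was not tested.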
